A study of Rattus norvegicus with 18 samples.

Results

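The genes of the mitochondrial respiratory chain were examined in macrophages of the rat knee synovium, the tissue that lines the joint, at 4-weeks and 12-weeks after OA or sham surgery. They were taken by symbol from both deposited tables. The names were the nuclear Nduf, Sdhb to Sdhd, Uqcr, Cox4 to Cox8 and Atp5 families and the mitochondrial Mt-nd, Mt-cyb, Mt-co and Mt-atp genes. Of 30643 genes per table, 95 matched, 82 in the nuclear and 13 in the mitochondrial genome, and 86 had a mean of at least 10 normalised reads at each time point. Those 86 were tested: 33 of 36 nuclear complex I genes, 3 of 3 of complex II, 9 of 9 of complex III, 12 of 17 of complex IV, 16 of 17 of complex V, and all 13 mitochondrial genes. The rule used names and reads only, and no difference between OA and sham.

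All animals were male, wild-type Sprague Dawley rats operated on at 12 weeks of age. In the OA groups the anterior cruciate ligament was cut and the medial meniscus was freed from its tibial ligament. In the sham groups the joint capsule was opened and closed. Cells were released from the synovium and selected for CD11b/c, integrin chains that macrophages and their myeloid relatives carry, with magnetic beads. There were 5 OA and 5 sham libraries at 4-weeks, each a pool of 4 rats, and 4 OA and 4 sham libraries at 12-weeks, each a pool of 3 rats. The methods state 5 replicates per condition at both times, whereas the labels give 4 at 12-weeks. The pools average over animals, so the spread reported here is that between pools. Time after surgery, pool size and the normalisation all differ between the weeks and cannot be told apart.

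The respiratory chain passes electrons from NADH through complex I, or from succinate through complex II, to ubiquinone, then through complex III and cytochrome c to complex IV, which reduces oxygen. Complexes I, III and IV pump protons, and complex V (ATP synthase) uses the gradient to make ATP. Complexes I, III, IV and V combine subunits of both genomes, while complex II is encoded in the nucleus only. In macrophages, inflammatory activation with endotoxin is known to lower the use of this chain, and alternative activation by interleukin-4 to raise it.

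The nuclear members have no shared chromosome, and are known to be tied together by factors that bind near their start sites, among them NRF1, YY1 and ETS-family factors such as GABP. Promoters of RefSeq genes (build GRCr8, 250 bases before to 50 bases after the start) were matched by symbol for 61 of the 71 tested nuclear symbols. The motif CCGGAAG of the ETS family, read on both strands, was in 18 of these 61 promoters (29.5%), against 9.22% of all 27457 promoters. AAGATGGC, the YY1 motif, was in 14 of 61, against 3.44% of all. CGCATGCG, the core of the NRF1 motif, was in 7 of 61 (11.5%), against 1.81%, a length chosen after counts were seen. With G before and C after this core it was in 4 of 61 (6.56%), against 0.932%. At least one of these was in 29 of 61 promoters (47.5%), against 13.3% of all (12.7% with the longer NRF1 form), while TATAAA was in 4 of 61 (6.56%), against 14.3%. These are letter matches in a window and not binding sites, and the members had a median G+C content of 56.0% against 52.3% over all promoters.

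The 5 windows of 150 bases printed here end just before the start and have matches in capitals. Cox8a had the smallest p-value at 4-weeks, Sdhd and Uqcrq were among the 10 smallest there, Atp5me carries the NRF1 core, and Cox8b is the muscle counterpart of Cox8a. They are picked examples, and whether motif matches go with the differences between OA and sham was not tested. All windows are given on the strand of the gene, which for Cox8a is the minus strand at chr1:213833624-213833773, with CTTCCGG (the ETS motif on the other strand) at -57 and at -19.
Cox8a: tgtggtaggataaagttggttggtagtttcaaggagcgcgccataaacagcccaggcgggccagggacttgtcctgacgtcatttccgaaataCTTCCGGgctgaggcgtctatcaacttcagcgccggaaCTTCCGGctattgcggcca
The Sdhd window (minus strand, chr8:59850642-59850791) holds the same letters at -48.
Sdhd: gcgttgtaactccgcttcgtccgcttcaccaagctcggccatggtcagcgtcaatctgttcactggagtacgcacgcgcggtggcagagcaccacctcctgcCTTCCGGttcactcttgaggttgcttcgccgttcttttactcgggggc
The Uqcrq window (minus strand, chr10:38089979-38090128) holds CCGGAAG at -22.
Uqcrq: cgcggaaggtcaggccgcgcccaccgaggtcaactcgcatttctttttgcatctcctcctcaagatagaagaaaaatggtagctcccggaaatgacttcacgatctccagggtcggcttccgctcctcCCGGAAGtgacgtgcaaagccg
The Atp5me window (plus strand, chr14:1464710-1464859) holds the NRF1 core at -75 and CTTCCGG at -11.
Atp5me: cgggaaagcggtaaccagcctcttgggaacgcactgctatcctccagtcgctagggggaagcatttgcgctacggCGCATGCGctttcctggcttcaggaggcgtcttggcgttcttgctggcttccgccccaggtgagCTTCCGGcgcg
The Cox8b window (minus strand, chr1:205408274-205408423) holds neither an ETS, a YY1 nor an NRF1 match, and has TATAAA at -39.
Cox8b: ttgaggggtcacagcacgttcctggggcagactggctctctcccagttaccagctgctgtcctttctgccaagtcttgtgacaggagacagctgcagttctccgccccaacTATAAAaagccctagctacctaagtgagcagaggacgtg

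Libraries held 4662344 to 18080503 recovered reads. Sham replicate 3 at 4-weeks was the shallowest. All 12 macrophage markers, among them Cd68, Csf1r, Adgre1 and Itgam, were measured in every group, and 0 of 12 had an unadjusted p under 0.05 at either time. Their summed normalised reads at 4-weeks were 138622 to 167303 in OA and 140483 to 146509 in sham. Fibroblast markers were also present, at 71817 to 111579 in OA and 47388 to 111718 in sham at 4-weeks. Endothelial markers summed to 28235 to 40038 and 31044 to 38670, and pericyte and smooth muscle markers to 15882 to 18121 and 17525 to 22495. The libraries therefore held RNA of other cells, and their part in the respiratory chain levels was not tested. At that time 2 of 9 fibroblast markers were higher in OA at an unadjusted p under 0.05, and 3 of 6 osteoclast markers were lower, with a median log2 fold change of -0.88 over those 6, beside 4.1% of all genes higher and 3.82% lower. Of adipocyte markers 2 of 7 were lower, and of pericyte and smooth muscle markers 2 of 8. In such bulk samples, fewer cells of a type and less RNA per cell cannot be told apart. Normalised reads are not divided by transcript length, so each gene is compared between libraries and not with other genes.

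No respiratory chain gene passed the test for OA against sham, in either genome or any complex, at either time. At 4-weeks most nuclear genes had small positive differences, with a median of 0.04 that was near the 0.03 over all genes. Most mitochondrial genes had small negative ones. At 12-weeks most nuclear and all mitochondrial differences were positive, with those of mitochondrial genes the larger. The mean levels of every complex overlapped between OA and sham libraries, and the size of several differences rested on single libraries. At 12-weeks the difference in mean mitochondrial level, 0.35 on the log2 scale, was larger than the SD between libraries, 0.29 in OA and 0.27 in sham, as was that of complex II, 0.14 against 0.08 and 0.11. These mean levels were not tested. A call required an adjusted p under 0.05 (limma, Benjamini-Hochberg over all genes tested) and, up or down, 0.5 or more on the log2 scale. The background was the same, with 0.0% of 14861 genes called at 4-weeks and 0.0% of 14666 at 12-weeks. DESeq2 called 31 genes (0.209%) at 4-weeks and 100 (0.682%) at 12-weeks, and 0 of the 86 members were among them.

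**Figure D1:**
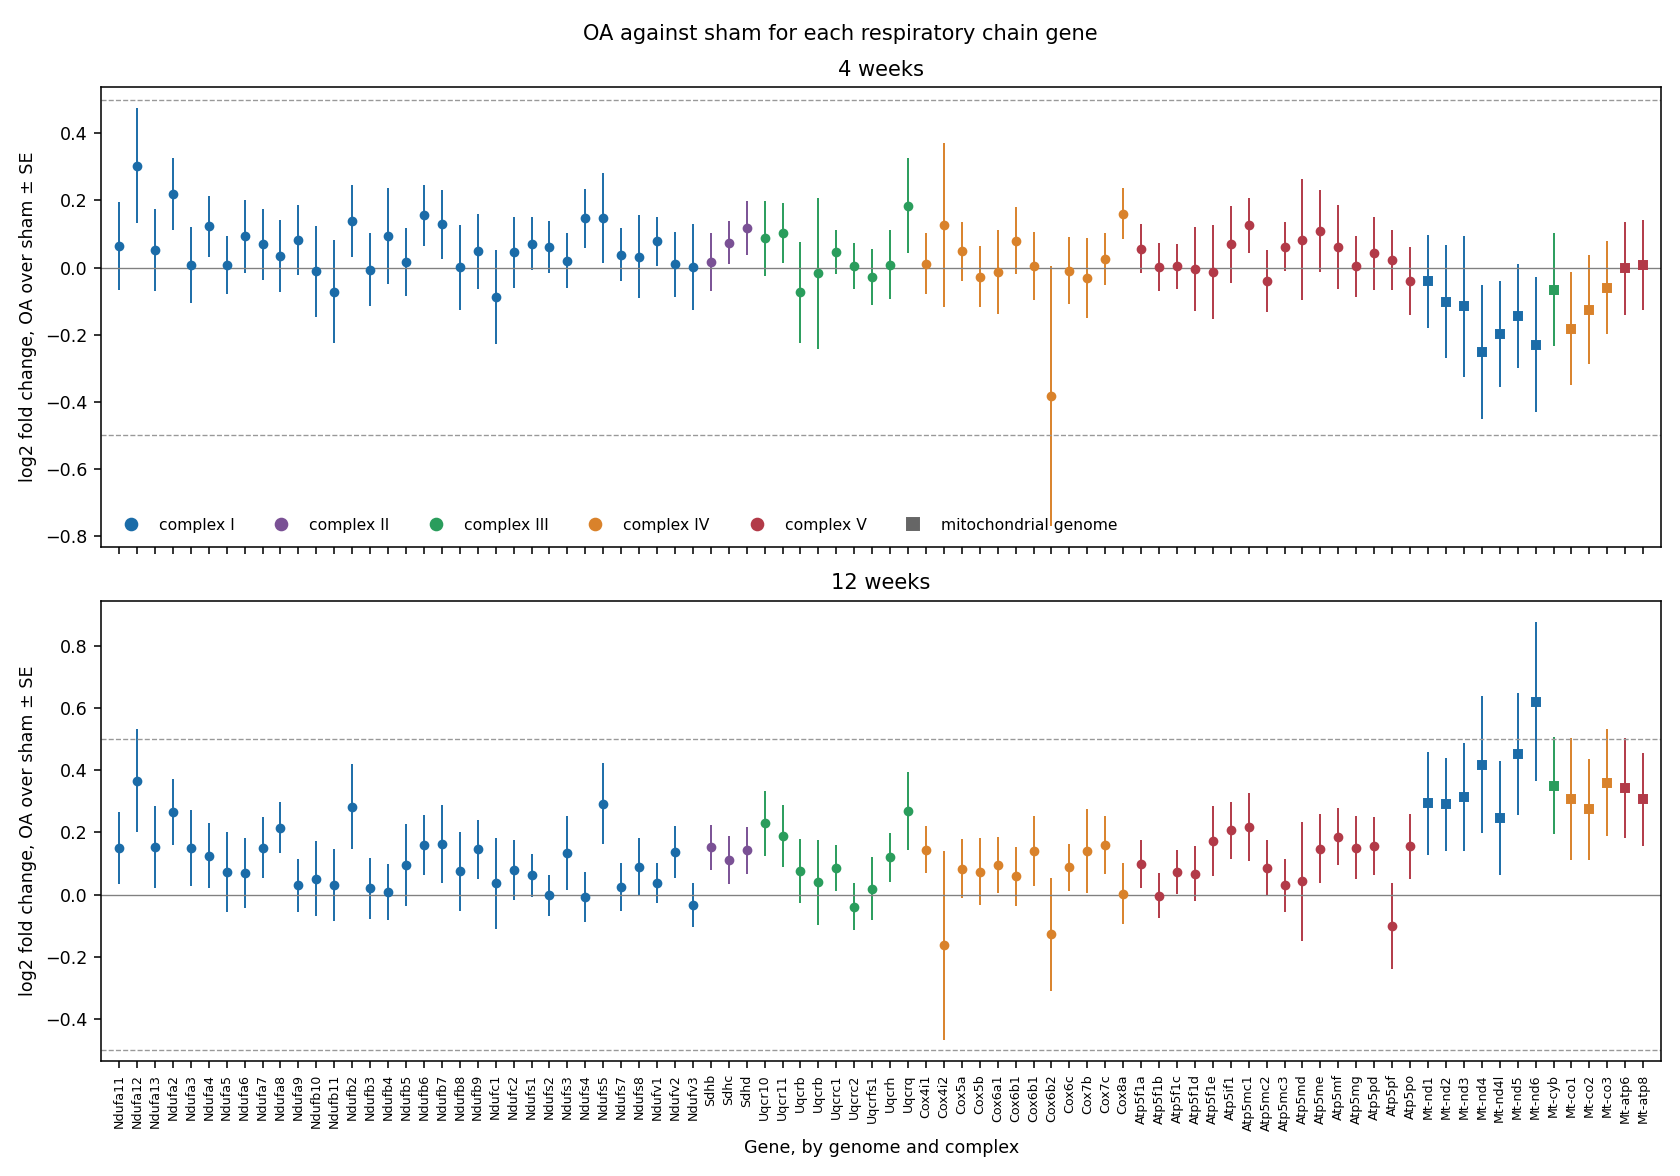
Each point is the log2 fold change of OA over sham of one gene, with its SE, at 4-weeks (top, 5 against 5 libraries) and 12-weeks (bottom, 4 against 4), ordered by genome and complex. Dashed lines mark the fold-change minimum of 0.5, which at 12-weeks Mt-nd6 alone exceeded, at 0.62 and an adjusted p of 0.378 (limma).

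At 4-weeks, 57 of 73 nuclear genes had a log2 fold change above 0, with a median of 0.04, beside 57.1% of all genes and a median of 0.03 over all genes. The median was 0.05 for complex I, 0.07 for complex II, 0.01 for complexes III and IV and 0.03 for complex V. Under edgeR the medians of complexes III and IV were both -0.02. Without sham replicate 4 the nuclear median was 0.002 and that of complex IV -0.03. Of the 86 genes, 0 were higher and 0 lower in OA at an unadjusted p under 0.05 (limma), beside 4.1% of all genes higher and 3.82% lower. edgeR and DESeq2 also gave 0 higher, beside 3.08% and 3.67% of all genes. The 95% confidence interval of the log2 fold change lay within 0.5 of 0 for 77 of 86 genes, 69 nuclear and 8 mitochondrial.

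Cox8a, the ubiquitous form of the smallest complex IV subunit, had the smallest p-value at 4-weeks. Its normalised reads were 598, 551, 540.5, 519 and 561 in OA and 529, 474, 441, 516 and 520.1 in sham. All sham values lay below OA replicates 1, 2, 3 and 5, and OA replicate 4 lay among them. The means were 554 ± 28.9 (SD, n = 5) and 496 ± 37.2 (SD, n = 5), a log2 fold change of 0.16 ± 0.08 (SE) with an unadjusted p of 0.053 and an adjusted p of 0.639 in limma. The exact permutation test (two-sided) of this gene alone gave p = 0.0238, where 0.00794 is the smallest that 5 against 5 allows. Cox8a was picked by its p-value on the same libraries, and this exact p is not corrected for that choice. At 12-weeks Cox8a was at 580.1 ± 28.9 in OA and 582 ± 81.0 in sham (SD, n = 4 each).

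Of the 10 smallest p-values at 4-weeks 6 belonged to Nduf genes, which were 33 of the 86 tested, and none of the 10 was under 0.05. Their Ndufa4 is now known as a subunit of complex IV. Ndufa2, a small matrix-arm subunit, read 383, 394, 415, 392 and 378 in OA, and 338, 373, 418, 277 and 298 in sham. The OA libraries lay close together and within the sham range. The difference was 0.22 ± 0.11 (SE) on the log2 scale, and limma gave an adjusted p of 0.643. Ndufa12 had a log2 fold change of 0.30 ± 0.17, Ndufb6 0.16 ± 0.09, Ndufs4 0.15 ± 0.09, Ndufb2 0.14 ± 0.11 and Ndufa4 0.12 ± 0.09 (SE), all with adjusted p-values of 0.666 to 0.739. The others of the 10 were Atp5mc1, a gene of the ATP synthase c-ring, Sdhd, a membrane anchor of complex II, and Uqcrq, a small subunit of complex III, at 0.13 ± 0.08, 0.12 ± 0.08 and 0.18 ± 0.14 (SE).

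The 9 nuclear core genes described next had log2 fold changes of -0.03 to 0.08 at 4-weeks. Atp5f1b, the catalytic beta subunit of ATP synthase, read 7091, 7460.3, 6968, 7085 and 6955 in OA and 7776, 7089, 7218, 6815 and 6672 in sham, with a 95% interval of -0.16 to 0.16 for the log2 fold change. Cox4i1, the ubiquitous complex IV subunit, read 2430.0, 2458, 2432, 2384 and 2377 in OA and 2392, 2296, 3027, 2185 and 2182 in sham. The sham values spanned those of OA, sham replicate 3 being the highest, and the interval was -0.19 to 0.21. The log2 fold change was 0.07 ± 0.08 for Ndufs1 and 0.08 ± 0.07 for Ndufv1, which carry iron-sulphur clusters or the flavin of complex I, 0.02 ± 0.09 for Sdhb, 0.05 ± 0.07 for Uqcrc1, -0.03 ± 0.08 for Uqcrfs1, 0.05 ± 0.09 for Cox5a and 0.06 ± 0.07 for Atp5f1a (SE, n = 5 each).

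**Figure D2:**
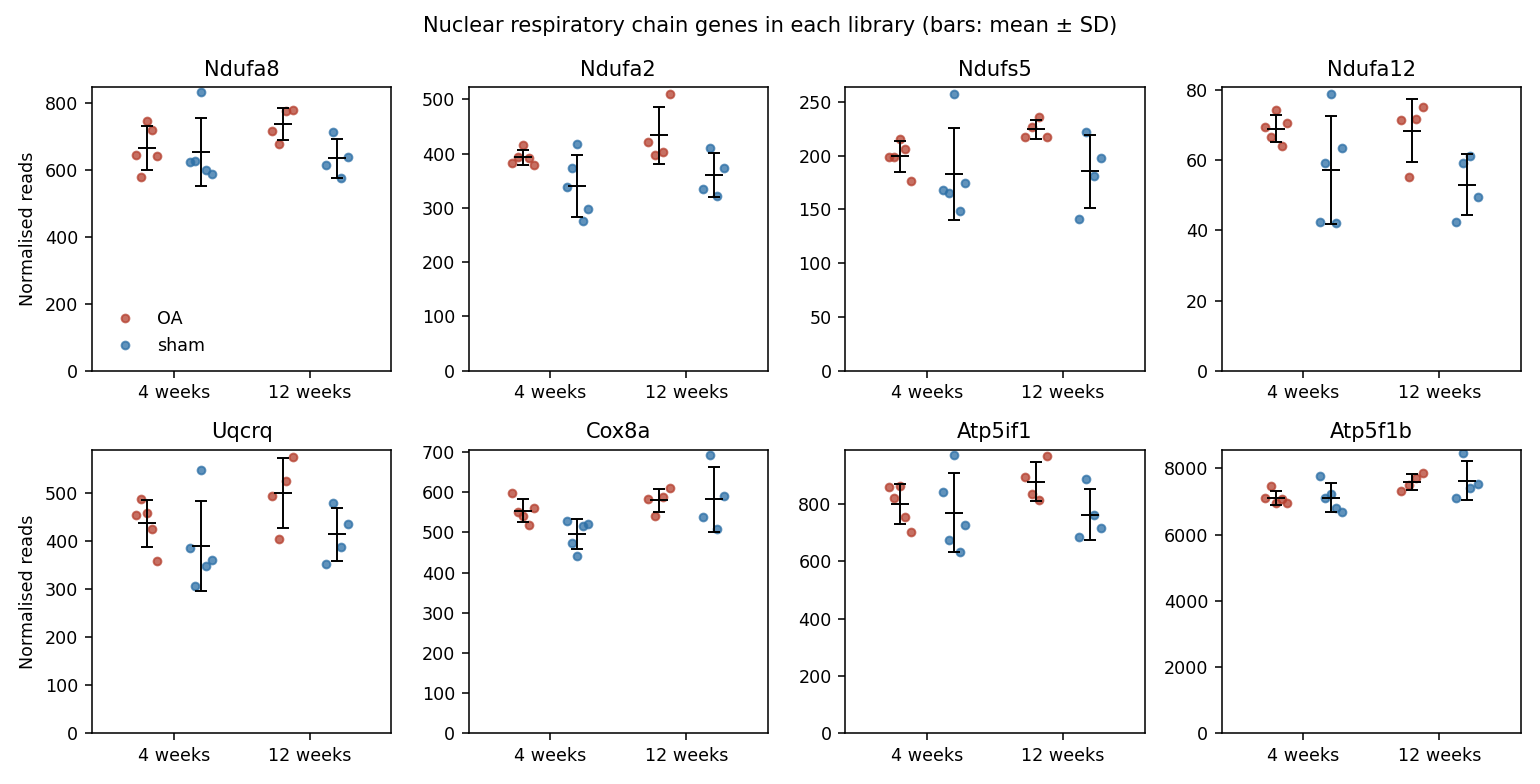
Normalised reads (y axis, from 0) of 8 nuclear genes in each library, with OA and sham at 4-weeks and 12-weeks and bars for the mean ± SD. OA and sham libraries overlap in every panel, and Atp5f1b is close to level between OA and sham at each time. The weeks were normalised separately and are not compared.

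At 4-weeks 12 of 13 mitochondrial genes had a log2 fold change below 0, with a median of -0.12 and a range of -0.25 to 0.01. Mt-nd6 read 557, 508, 625, 348 and 598 in OA and 438, 530.3, 912, 715 and 539 in sham. OA replicate 4 was the lowest and sham replicate 3 the highest, and the other libraries overlapped. Mt-co1, the catalytic subunit of complex IV, was at 63397 ± 8336 in OA and 73062 ± 18171 in sham (SD, n = 5 each), a log2 fold change of -0.18 ± 0.17 (SE) with an adjusted p of 0.774 in limma. Mt-cyb, the cytochrome b of complex III, read 6361, 6347, 6262, 4996 and 6207 in OA and 4384, 5336, 6729, 9269 and 6754 in sham. The lowest and the highest value of Mt-cyb were both in sham. Without sham replicate 3 the median of the 13 genes was -0.003. Without OA replicate 4 it was -0.04 and without sham replicate 1 it was -0.22.

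Sham replicate 3 stood apart from the other libraries of its group at 4-weeks. It was the highest of the 10 libraries for 51 of 73 nuclear genes (69.9%) and 9 of 13 mitochondrial genes (69.2%), beside 27.4% of all genes tested. Its mean log2 level over 70 cytosolic ribosomal protein genes was 11.61, against 10.79 to 10.91 in the other sham libraries, and its mean over 15 skeletal muscle markers was 6.24, against 4.95 to 5.56. It was also the highest sham library for adipocyte markers, at 7.83 against 5.84 to 6.59, and for erythroid markers, at 7.71 against 6.38 to 6.79. Mitochondrial ribosomal proteins were highest there too, at 8.03 against 7.70 to 7.82. In contrast it was the lowest sham library for macrophage markers (12.66, others 12.80 to 12.94). The same held for citric acid cycle genes (9.80, others 9.89 to 10.01) and mitochondrial biogenesis genes (8.06, others 8.16 to 8.20). Of all genes tested, 36.6% were lowest in sham replicate 3 among the 10 libraries. The part of these cell types and gene sets in its respiratory chain levels was not tested. For genes where this library is the highest, leaving it out raises the difference of OA over sham. The counts without it follow in part from that, and show no effect of OA by themselves. Without sham replicate 3, 22 of the 73 nuclear genes were higher in OA at an unadjusted p under 0.05, beside 6.17% of all genes. These were 14 of complex I, 3 of complex III, 1 of complex IV and 4 of complex V, and the nuclear median was 0.11. The smallest adjusted p among the 86 genes was then 0.305 (limma), so 0 passed, beside 0.00691% of all genes. With sample quality weights 20 were higher, beside 6.74%, and with TMM scaling 3, beside 5.75%. No other single library gave more than 3, and without sham replicate 4 there were 0 higher and 1 lower.

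The SD between libraries was smaller in OA than in sham for most nuclear genes. At 4-weeks the median SD of the log2 level over 73 nuclear genes was 0.07 in OA and 0.22 in sham, and the SD was smaller in OA for 68 of the 73 genes (93.2%), beside 76.5% of all genes tested. Without sham replicate 3 the sham median was 0.12 and the share 74.0%, beside 51.9% of all genes. At 12-weeks the medians were 0.09 and 0.18, and 67 of 73 genes (91.8%) had the smaller SD in OA, beside 62.2% of all genes. Without sham replicate 2, the highest library for 37 of 73 nuclear genes at 12-weeks, the sham median was 0.11 and the share 60.3%, beside 57.8%. For the mitochondrial genes the medians at 12-weeks were 0.30 in OA and 0.27 in sham. The spreads were not tested.

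**Figure D3:**
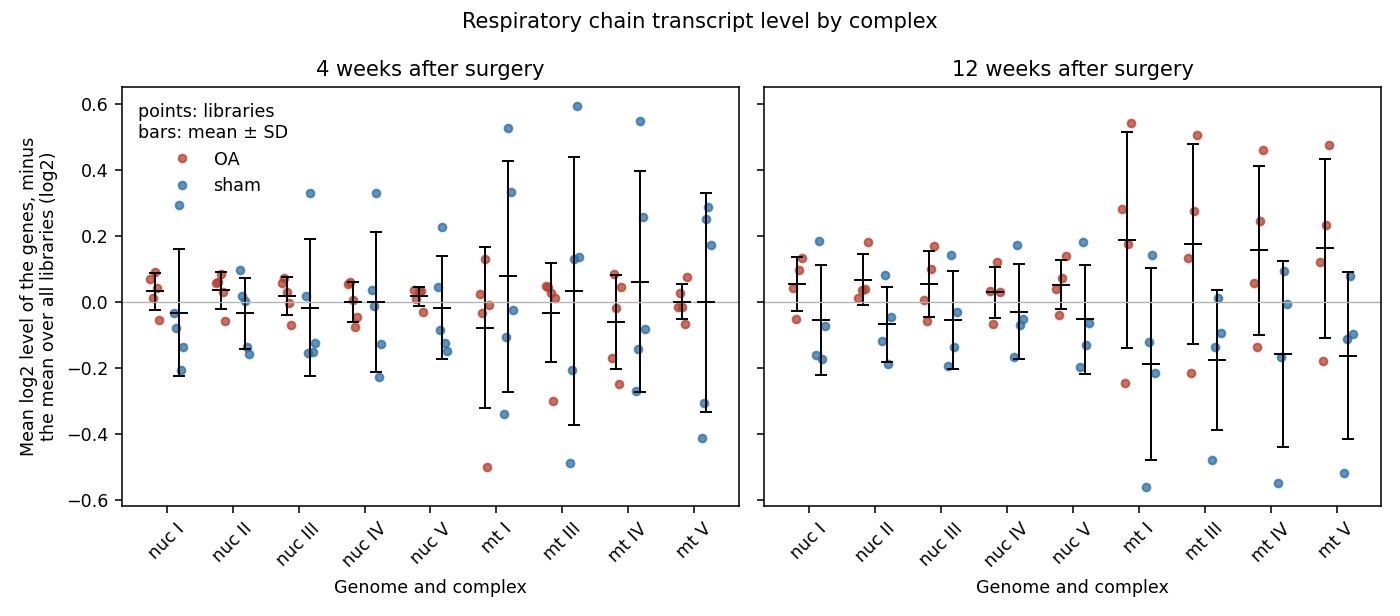
Mean log2 level of the tested genes of each complex and genome in each library, minus the mean over the libraries of that week, with bars for the mean ± SD (nuc, nuclear; mt, mitochondrial). The OA points at 4-weeks are close together for nuclear genes while sham replicate 3 lies highest in complexes I, III, IV and V, and at 12-weeks the mitochondrial genes spread most.

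At 12-weeks 65 of 73 nuclear and all 13 mitochondrial genes had a log2 fold change above 0, beside 47.5% of all genes. The median was 0.09 for nuclear and 0.31 for mitochondrial genes, beside -0.01 over all genes. By complex, the nuclear medians were 0.09 (I), 0.14 (II), 0.09 (III), 0.09 (IV) and 0.12 (V), and the mitochondrial ones 0.31 (I), 0.35 (III), 0.31 (IV) and 0.32 (V). These medians stayed above 0 in all 17 alternatives, but their size moved with single libraries. The genes share these libraries and the alternatives reuse them, so such counts are not independent observations. The nuclear median ran from 0.07 without sham replicate 1 to 0.17 without sham replicate 2, with complex I at 0.05 to 0.20, complex IV at 0.04 to 0.15 and complex V at 0.07 to 0.20, and the mitochondrial median from 0.21 without OA replicate 4 to 0.45 without OA replicate 2. The mean log2 level per library overlapped between OA and sham, at 9.16 to 9.33 in OA and 9.04 to 9.38 in sham for nuclear genes, and at 12.13 to 12.85 and 11.79 to 12.45 for mitochondrial genes.

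Of the 86 genes, 7 (8.14%) were higher in OA at an unadjusted p under 0.05 (limma) and 0 lower at 12-weeks, beside 5.75% of all genes higher and 6.62% lower. That share of the members is near the background, and all 7 had adjusted p-values of 0.358 to 0.401. They were Ndufa8, Ndufa2, Ndufs5 and Atp5if1 of the nuclear genome and Mt-nd6, Mt-nd5 and Mt-cyb of the mitochondrial genome. Among the 86 genes 0 had OA libraries that all lay above or all below the sham libraries, beside 2.85% and 3.44% of all genes at 12-weeks and 1.18% and 0.693% at 4-weeks.

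Ndufa8, a subunit of complex I that faces the intermembrane space, had the smallest p-value. It read 717, 677, 775 and 779 in OA and 614, 713, 575 and 640.1 in sham. OA replicates 1, 3 and 4 were above every sham library, and OA replicate 2 was below sham replicate 2. The means were 737 ± 48.9 and 636 ± 58.3 (SD, n = 4 each), a log2 fold change of 0.22 ± 0.08 (SE), with a 95% interval of 0.03 to 0.40, an unadjusted p of 0.0245 and an adjusted p of 0.358 in limma. The exact permutation test (two-sided) gave p = 0.0571, where 4 against 4 allows no less than 0.0286, and is likewise not corrected for the choice of the gene.

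Ndufa2 read 421, 398, 403 and 510.5 in OA and 336, 411, 322 and 373 in sham, a log2 fold change of 0.26 ± 0.11 (SE). Only sham replicate 2 reached the OA values. Ndufs5, another complex I subunit of the intermembrane space, read 217, 227, 236 and 218 in OA and 141, 222, 181 and 198 in sham, a log2 fold change of 0.29 ± 0.13 (SE). Atp5if1 encodes the inhibitor that binds ATP synthase and stops it from running in reverse to consume ATP. It read 894, 836, 816 and 969 in OA and 685, 889.5, 763 and 716 in sham, a log2 fold change of 0.21 ± 0.09 (SE), and had been at 0.07 ± 0.12 at 4-weeks. Uqcr10, Ndufa12 and Uqcrq followed at 0.23 ± 0.10, 0.37 ± 0.17 and 0.27 ± 0.13 (SE), with adjusted p-values of 0.404 to 0.414 (limma).

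Of the nuclear core genes at 12-weeks, Atp5f1b read 7319, 7492, 7696 and 7873 in OA and 7104, 8467, 7400.0 and 7518 in sham, with a log2 fold change of -0.003 ± 0.07 (SE). Sdhb, the iron-sulphur subunit of complex II, was at 992 ± 64.8 in OA and 892 ± 59.6 in sham (SD, n = 4 each), a log2 fold change of 0.15 ± 0.07 (SE) with an adjusted p of 0.417. Ndufs1 and Ndufv1 were at 0.06 ± 0.07 and 0.04 ± 0.06, Uqcrc1 and Uqcrfs1 of complex III at 0.09 ± 0.07 and 0.02 ± 0.10, Cox4i1 and Cox5a of complex IV at 0.14 ± 0.08 and 0.08 ± 0.10, and Atp5f1a at 0.10 ± 0.08 (SE). The genes Atp5mc1, Atp5mc2 and Atp5mc3, which encode the same c-ring protein with different import signals, had log2 fold changes of 0.22 ± 0.11, 0.09 ± 0.09 and 0.03 ± 0.09. The 95% interval lay within 0.5 of 0 for 66 of 73 nuclear and 0 of 13 mitochondrial genes, so a mitochondrial difference past the fold-change minimum could not be set aside with these libraries.

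**Figure D4:**
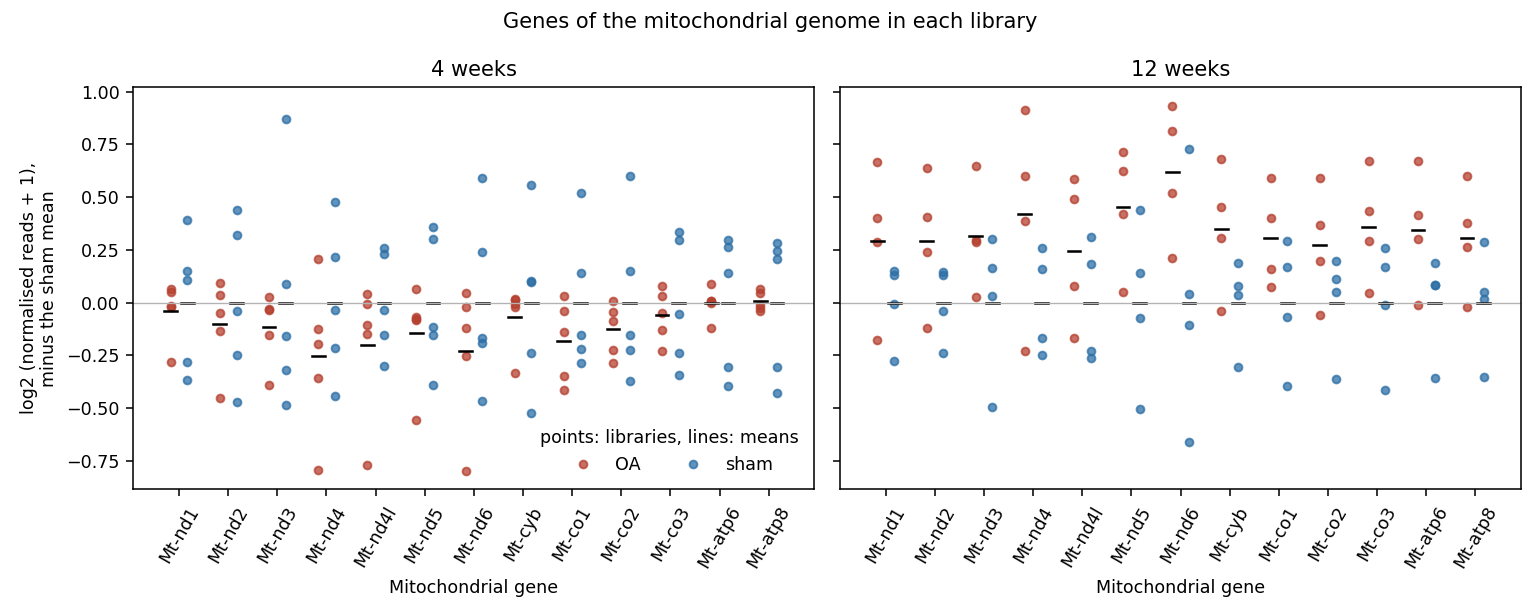
The log2 (normalised reads + 1) of each mitochondrial gene in each library, relative to the sham mean, at 4-weeks and 12-weeks, with lines for the group means. At 12-weeks the OA means lie above the sham means for all 13 genes, OA replicate 4 being the highest library for each and sham replicate 1 the lowest for 12 of them.

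Among the mitochondrial genes at 12-weeks, Mt-nd6 read 1453, 957, 1184 and 1578 in OA and 522, 767, 1366 and 848 in sham. OA replicates 1 and 4 lay above all of sham, and sham replicate 3 lay above the other OA libraries. The means were 1293 ± 278 and 876 ± 355 (SD, n = 4 each), a log2 fold change of 0.62 ± 0.26 (SE) with a 95% interval of 0.05 to 1.19, an adjusted p of 0.378 in limma and an exact permutation p of 0.114. Mt-nd6 is the one protein gene on the light strand, next to Mt-nd5 and Mt-cyb on the other. Whether the counting used strand is not given in the sources used here, so reads of Mt-nd6 and antisense reads of its neighbours cannot be told apart.

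Mt-nd5, a proton-pumping subunit of complex I, read 7314, 4919, 6346 and 7800.0 in OA and 3345, 4515, 6432 and 5236 in sham, a log2 fold change of 0.45 ± 0.20 (SE). Mt-cyb read 13661, 10748, 15093 and 17708 in OA and 8943, 11338, 12560.1 and 11673 in sham, a log2 fold change of 0.35 ± 0.16 (SE). OA replicate 2 was in both cases within the sham range, and so was OA replicate 3 for Mt-nd5. The other mitochondrial genes ran from 0.25 ± 0.18 for Mt-nd4l to 0.42 ± 0.22 for Mt-nd4 (SE), with Mt-nd1 at 0.29, Mt-nd2 at 0.29, Mt-nd3 at 0.31, Mt-co1 at 0.31, Mt-co2 at 0.27, Mt-co3 at 0.36, Mt-atp6 at 0.34 and Mt-atp8 at 0.31. Mt-nd4l overlaps Mt-nd4, and Mt-atp8 overlaps Mt-atp6, and how reads in the overlaps were assigned is not given in the sources used here. Mt-nd4 had means of 123 and 147 normalised reads at 4-weeks against 360 and 410.1 for Mt-nd4l (OA and sham), although Mt-nd4 is the longer gene. Why was not tested, and the values of Mt-nd4 cannot be taken as the expression of the whole gene.

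The share of all reads from the 13 mitochondrial genes was 1.58% ± 0.285 in OA (range 1.26 to 1.94) and 1.27% ± 0.215 in sham (0.973 to 1.48) at 12-weeks (SD, n = 4 each). At 4-weeks it was 1.03% ± 0.0926 and 1.18% ± 0.322 (SD, n = 5 each). The tested nuclear genes together took 0.481% ± 0.0241 and 0.454% ± 0.0493 at 12-weeks and 0.516% ± 0.0213 and 0.519% ± 0.0726 at 4-weeks, in OA and sham. OA and sham overlapped in each of these shares. The lowest mitochondrial share at 12-weeks, 0.973%, was in sham replicate 1, the deepest of all libraries (18080503 reads). The highest at 4-weeks, 1.69%, was in sham replicate 3, the shallowest (4662344 reads). The highest at 12-weeks, 1.94%, was in OA replicate 4 (12841781 reads), and the lowest at 4-weeks, 0.882%, in sham replicate 1 (12927114 reads). The part of depth in the mitochondrial levels and shares was not tested.

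The counts at 12-weeks depended on single libraries. Without OA replicate 4 or sham replicate 1, which held the highest and lowest mitochondrial levels, 0 of 86 genes were higher at an unadjusted p under 0.05, beside 3.54% and 4.7% of all genes. Without sham replicate 2 there were 28, all nuclear, beside 6.33% of all genes, and without OA replicate 2 there were 16, beside 5.81%. Sham replicate 2 was the highest library for 37 of 73 nuclear genes, so the count without it follows in part from that. There were 2 without OA replicate 1, beside 6.02%, 3 without OA replicate 3, beside 4.1%, 3 without sham replicate 4, beside 6.0%, and 8 without sham replicate 3, beside 6.39%. With all libraries there were 11 in edgeR, beside 6.59%, 10 in DESeq2, beside 6.01%, and 19 with sample quality weights, beside 6.8%. The smallest adjusted p in any of these limma fits was 0.107 (limma), for Mt-nd6 without sham replicate 3.

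**Figure D5:**
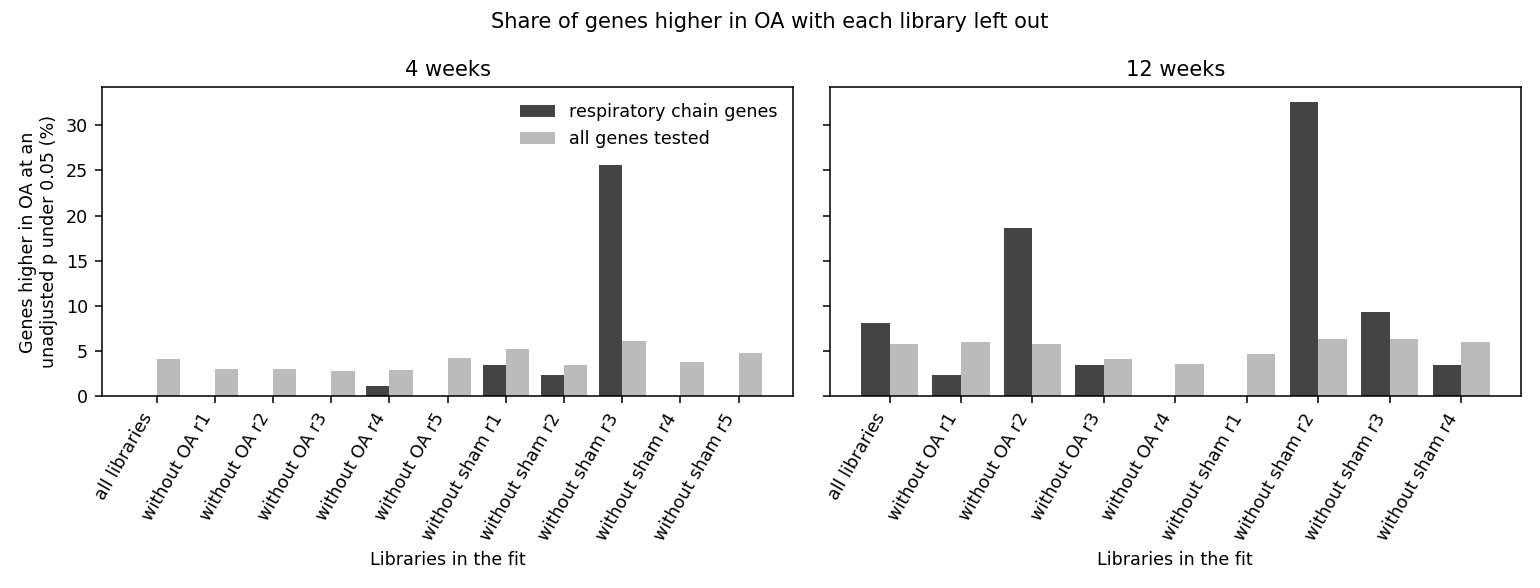
Percent of the 86 respiratory chain genes (dark bars) and of all genes tested (light bars) that were higher in OA at an unadjusted p under 0.05 (limma), with all libraries and with each library left out in turn (r1, replicate 1). The tallest dark bars are without sham replicate 3 at 4-weeks (25.6%) and without sham replicate 2 at 12-weeks (32.6%). Both are sham libraries that were the highest for many of these genes.

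Markers of other cells moved with OA at 12-weeks beside these genes. Of 9 fibroblast markers, 7 were higher and 1 lower in OA at an unadjusted p under 0.05, beside 5.75% and 6.62% of all genes, with summed normalised reads of 84381 to 109824 in OA and 56886 to 88412 in sham. Of 16 skeletal muscle markers, 7 were higher and 0 lower, with sums of 2198 to 3297 and 1774 to 1896, and 0 of either list were at 0 in all libraries. Higher too were 3 of 5 Schwann cell markers, 2 of 5 of cartilage and bone and 2 of 6 of osteoclasts. Lower were 2 of 8 pericyte and smooth muscle markers, of which 1 other was higher. Lower too were 1 of 6 endothelial, 1 of 3 T and NK cell and 1 of 4 adipocyte markers. In each of these lists 0 genes were called at the adjusted threshold. The part of these cell types in the differences of the respiratory chain genes was not tested. The muscle forms of complex IV subunits had few reads at 12-weeks, with more in OA than in sham for all 3, too few to read a direction. Cox8b read 13.1, 6.13, 10.7 and 13.9 in OA and 6.80, 7.73, 3.82 and 4.60 in sham at 12-weeks, from 44 and 25 reads in all. Cox6a2 came from 36 and 25 reads and Cox7a1 from 7 and 4. These 3 genes were under the minimum for testing.

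The OA effect at 12-weeks was compared with that at 4-weeks in one fit of all 18 libraries. Of 86 genes, 0 differed at an adjusted p under 0.05, beside 0.0% of 14420 genes. At an unadjusted p, 2 had a larger effect at 12-weeks and 0 a smaller one, beside 1.51% and 2.25% of all genes. edgeR gave 4 and 0, beside 2.46% and 0.818%, and DESeq2 gave 5 and 0, beside 2.74% and 0.915%. They were Mt-nd6, with a difference of 0.80 ± 0.33 (SE, log2) and an unadjusted p of 0.0276, and Mt-nd5, with 0.55 ± 0.26 and 0.0465, both at an adjusted p of 0.781 in limma. In limma the larger effects numbered 0 without OA replicate 4 at 4-weeks, sham replicate 3 at 4-weeks, or OA replicate 1, OA replicate 4 or sham replicate 1 at 12-weeks, and 6 without OA replicate 2 at 12-weeks. Mt-nd4, Mt-co1 and Mt-co3 followed at 0.62 ± 0.31, 0.44 ± 0.24 and 0.37 ± 0.22, with the limit on Mt-nd4 given above. All 13 mitochondrial differences were above 0, with a median of 0.37, which ran from 0.27 to 0.49 over 22 alternatives. At 12-weeks OA replicate 4 was the highest library for all 13 genes and sham replicate 1 the lowest for 12. The 13 genes are therefore not independent observations, and the alternatives reuse the same libraries. The nuclear median was 0.02, 43 of 73 being above 0, and ran from -0.03 to 0.12. The median over all genes was -0.10 in this fit and -0.01 in edgeR and DESeq2.

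Complex IV has paired isoforms for some subunits, and their balance can shift with oxygen or tissue. Cox4i2, the form known to be induced by low oxygen, read 60.3, 111, 52.9, 41.5 and 87.8 in OA and 50.6, 56.2, 83.6, 59.8 and 58.0 in sham at 4-weeks, and 34.3 to 105 in OA against 52.1 to 86.5 in sham at 12-weeks. The OA libraries spread more widely than sham at both times. The log2 ratio of Cox4i2 to Cox4i1 was -5.16 ± 0.55 in OA and -5.28 ± 0.16 in sham at 4-weeks (SD, n = 5 each), with an exact permutation p of 0.667 (two-sided), and -5.65 ± 0.70 and -5.34 ± 0.36 at 12-weeks (SD, n = 4 each), with an exact p of 0.429. Cox6b2, known as the testis form, was in all libraries at 7 to 36 reads. Its ratio to the 2 gene entries named Cox6b1 differed between OA and sham by -0.46 and -0.39 at 4-weeks and by -0.19 and -0.27 at 12-weeks, with exact permutation p-values of 0.214 to 0.429. Over these 6 tests the adjusted p-values were 0.514 to 0.667. Cox6a2, Cox7a1 and Cox8b were too low for a ratio.

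The 9 members under a mean of 10 included genes that every respiring cell is thought to need. Ndufa1 had 9 reads in OA and 9 in sham in all at 4-weeks, Ndufs6 had 6 and 4, and Atp5pb, the stalk subunit b of ATP synthase, had 0 and 0. The promoter of Ndufa1 holds ETS matches and that of Ndufs6 a YY1 and a TATAAA match. The others were Cox6a2, Cox7a1, Cox7b2, Cox8b, Cox8c and a further entry named Ndufv3. Whether these entries of the annotation cover the whole genes was not tested, so the reads cannot be taken as the genes' expression. Uqcrb and Cox6b1 are each listed under 2 identifiers, which may share reads, and were kept apart. The Uqcrb entry ENSRNOG00000032204 was at 65.6 ± 5.29 in OA and 70.9 ± 33.3 in sham at 4-weeks (SD, n = 5 each), with sham replicate 3 at 130 and the other sham libraries at 49.4 to 62.6. Atp5md, a small subunit of the ATP synthase dimer, had log2 fold changes of 0.08 ± 0.18 and 0.04 ± 0.19 (SE) at 4-weeks and 12-weeks.

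Genes of the wider pathway were tested in the same fits. Over 11 lists of assembly factors, other subunits, mitochondrial biogenesis, the citric acid cycle, fatty acid oxidation, carriers and mitochondrial ribosomal proteins, 1 of 185 genes was higher and 0 lower in OA at 4-weeks at an unadjusted p under 0.05, beside 4.1% and 3.82% of all genes. At 12-weeks 3 of 184 were higher and 2 lower, beside 5.75% and 6.62%, and 0 passed the adjusted threshold at either time. The median log2 fold change was 0.04 at 4-weeks and 0.03 at 12-weeks, beside 0.03 and -0.01 over all genes. Mpc2, a subunit of the mitochondrial pyruvate carrier, was at 393 ± 28.7 in OA and 335 ± 24.0 in sham at 4-weeks (SD, n = 5 each), with an adjusted p of 0.570 in limma. At 4-weeks Mrpl27, a mitochondrial ribosomal protein, had a log2 fold change of 0.17 ± 0.09 (SE). At 12-weeks Cpt1a, which admits long-chain fatty acids to the mitochondrion, was at 1174 ± 69.8 in OA and 1505 ± 191 in sham (SD, n = 4 each), a log2 fold change of -0.35 ± 0.09 (SE) with an adjusted p of 0.278, and Mrpl12 was at 0.23 ± 0.09. Sdha, the flavin subunit of complex II that the naming rule leaves out, had log2 fold changes of 0.06 and 0.05 at 4-weeks and 12-weeks, and Cyc1, the cytochrome c1 of complex III, 0.01 and 0.03.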

How the data were processed

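Raw reads were checked for quality with fastp 0.20.0, aligned to Rnor_6.0 with STAR 2.7.6a, stripped of duplicates with Sambamba, counted per gene with featureCounts 2.0.0 and divided by DESeq2 1.24.0 size factors within each time point (paper's methods and the submitters' processing notes). The authors deposited these normalised reads (a signal) for both time points. Their fold changes, standard errors, test statistics and p-values in the same tables were not used. In every library 100% of values were whole multiples of one read (within 0.01 reads), so reads were recovered. Libraries were grouped by the labels, and nothing states that pools of a group came from separate days.

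OA was compared with sham in limma 3.58.1 (R 4.3.3; moderated test with mean-variance trend) on log2 (normalised reads + 1) over all genes with a mean of at least 10, and p-values were adjusted over all of them. Differences between weeks were tested on TMM log2 CPM (prior count 2). edgeR 4.0.16, DESeq2 1.42.0, pseudocounts of 0.5 and 5, every gene with a read, a mean of at least 50, TMM scaling, a replicate block, sample quality weights, no fold-change minimum and leaving out each library were alternatives. Confidence intervals used the degrees of freedom of the moderated test. Single genes and isoform ratios had exact permutation tests (Python 3.11.15, numpy 2.4.6, pandas 2.3.3, scipy 1.17.1). The fits were tested on simulated data with 200 changed genes. The members and gene lists were chosen with earlier results of these data known. Genes named are the 10 smallest p-values per week, 5 for the difference between weeks, all mitochondrial genes, core subunits, isoform pairs, the highest and lowest of each complex, and 2 other pathway genes per week. Sdha, Cyc1 and the genes named for low reads were named after their values were seen, and the NRF1 motif was shortened to its core after its counts were seen.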

Additional observations from a re-analysis of the deposited data

Results flagged for a closer look

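In 18 of 224 sets of 4 or 5 libraries (8.04%), one library stood apart from the rest of its group, where chance gives about 1 in 20 for independent sets. The sets here come from the same libraries, and some are means of genes that are sets themselves. They are not independent, so no excess over chance can be read from this share. Sham replicate 3 at 4-weeks was the highest of its group for Cox4i1 (3027 normalised reads, others 2182 to 2392), Cox4i2 (83.6), Ndufa8 (833, others 589 to 627), Ndufs5 (258) and the Uqcrb entry ENSRNOG00000032204 (130.0). OA replicate 4 at 4-weeks was the lowest of its group for Mt-cyb (4996, others 6207 to 6361), Mt-nd1 (4017), Mt-nd4l (238) and Mt-nd5 (1898), and for the mean log2 level of the mitochondrial genes of complex I (9.63), of complex III (12.29) and of all complexes (11.20, others 11.53 to 11.62). The remaining cases at 4-weeks were Atp5f1b in OA replicate 2 (7460.3) and Cox5a in sham replicate 1 (629), both highest. At 12-weeks they were the Cox6b1 entry ENSRNOG00000034161 in OA replicate 2 (252, lowest), Ndufb2 in sham replicate 2 (412, others 254 to 276), Uqcrc1 in OA replicate 4 (1954, highest) and the mean log2 level of complex II in OA replicate 4 (10.34, highest). What sets these libraries apart was not tested.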

How the results depend on the processing

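The count of called respiratory chain genes stayed at 0 at both time points and for the difference between weeks in every alternative run. None of the 135 values of single named genes came to pass the threshold in 2606 refits. In 47 of the 135 values the sign turned at least once, each time where the difference with all libraries was under its SE. The number of genes higher in OA at an unadjusted p under 0.05 at 4-weeks (0) became 1 with a mean of at least 50, 3 with TMM scaling and 20 with sample quality weights, and 0 to 22 with one library left out, with 0 to 1 lower. At 12-weeks the number (7) became 14 with every gene with a read, 11 in edgeR and 19 with sample quality weights, and 0 to 28 with one library left out. For the difference between weeks (2 larger, 0 smaller) it became 4 in edgeR, 5 in DESeq2 and 5 larger and 1 smaller with sample quality weights, and 0 to 6 larger and 0 to 1 smaller with one library left out. With the replicate block it was 1 at 4-weeks, 10 at 12-weeks and 1 for the difference between weeks. The share over all genes is not given here for the replicate block, the mean of at least 50 or every gene with a read. It is also not given for the difference between weeks with sample quality weights. These counts are therefore not read as a result about the respiratory chain genes. Same-numbered libraries did not deviate together (correlations of -0.13 to 0.30), so the numbers are not taken as pairs. The difference in the Cox4i2 ratio at 4-weeks ran from -0.0592 (without OA replicate 2) to 0.28 and the Cox6b2 ratio to the Cox6b1 entry ENSRNOG00000024309 from -0.754 to -0.27 with one library left out, the exact permutation p of the latter being 0.00794 without sham replicate 4. For the Cox6b1 entry ENSRNOG00000034161 it ran from -0.63 to -0.16, and the Cox4i2 ratio at 12-weeks from -0.60 to -0.04, with smallest exact permutation p-values of 0.0556 and 0.0571. Over all genes, the split at 4-weeks was 4.1% higher and 3.82% lower, 5.75% and 3.04% with TMM scaling and 3.08% and 5.01% in edgeR. The causes were not tested. Depth limits Cox6b2, Atp5md and the muscle isoforms most.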
